A study of Mus musculus with 18 samples.

Results

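The genes described here are 56 genes that drive the cell cycle and copy DNA, chosen by function and listed by symbol. All 56 were found among the 24485 genes of the deposited tables. They were read by role as 9 genes of origin licensing, 11 of the replication fork, 4 of nucleotide supply, 10 that control entry into S phase (G1/S control), 2 of checkpoint and repair, 13 that control entry into and passage through mitosis (G2/M control) and 7 of the mitotic machinery.

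RNA-seq was performed on bone marrow-derived macrophages (BMDMs), macrophages grown from bone marrow in medium conditioned by L929 cells, a source of the growth factor M-CSF. All 18 libraries came from Il10-/- mice on the C57BL/6J background, so every group, the controls included, lacked the animals' own interleukin 10 (IL-10), and per the methods of the study the 3 mice were 12-week-old males. The 6 groups of 3 were unstimulated cells, cells given 500 nM (+)-JQ1, cells given 10 ng/mL IL-10, and cells given LPS at 50 ng/mL after no pretreatment (LPS), after JQ1 (LPS + JQ1) or after IL-10 (LPS + IL-10). Pretreatment lasted 12 hours and LPS or buffer was then present for 4 hours, for 16 hours in all. JQ1 is a small molecule that occupies the bromodomains with which BET proteins bind acetylated histones, and LPS, from the outer membrane of Gram-negative bacteria, activates macrophages through TLR4. The labels call the cells without pretreatment untreated. The methods name a vehicle before LPS but call the unstimulated control untreated. Whether the LPS group without pretreatment received vehicle therefore cannot be told here, and no vehicle is named for the unstimulated cells. No wild-type cells and no direct measure of division, such as DNA content, were analysed here.

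A cell licenses its origins by loading the Mcm2 to Mcm7 helicase ring with Cdc6 and Cdt1, and cyclin E with Cdk2 then starts S phase, in which the helicase is activated and DNA polymerases follow it along the fork. Many of these genes are switched on by E2F factors once the retinoblastoma protein is inactivated, whereas genes of mitosis are switched on later by B-Myb, FoxM1 and the MuvB complex. BMDMs divide under M-CSF, and LPS is known to halt their cycle. In bulk RNA, fewer cycling cells and less RNA of these genes in each cell cannot be told apart.

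The libraries held 6781952 (an unstimulated library) to 28289498 (an IL-10 library) expected counts, the read numbers that RSEM estimates per gene. At the lower end 3 counts, the floor used here, stood for 0.442 CPM (counts scaled to the depth of the library) and at the upper end for 0.106. Il10 itself still had 27.1 to 177 normalised counts per library, and every library was labelled Il10-/-. The 8 macrophage markers found in the files (Csf1r, Lyz2, Cd68 and 5 others) added up to 14218 to 28588 TPM (the deposited level, scaled by transcript length and library depth) in every library. Lyz2 held most of this sum, with group means of 10214 (LPS) to 24665 TPM (JQ1). After JQ1 alone, mean Lyz2 and Mertk were higher than in unstimulated cells and the other macrophage markers lower. Fcgr1 was then at 10.5 against 118 TPM and Itgam at 86.3 against 309. The 6 myeloid progenitor markers added up to 0.07 to 2.84 TPM, of which Cd34 held most (1.78 to 2.83 in unstimulated libraries, 0.22 to 0.83 after JQ1, 0.61 to 1.54 with LPS and 0.07 to 0.26 with LPS + JQ1 for the list), and the defining markers Mpo, Elane, Prtn3 and Ctsg reached at most 0.41 TPM in any library. The summed level of the 5 neutrophil markers was 24.3 to 87.3 TPM in unstimulated libraries, 7.50 to 17.5 after JQ1 and 25.7 to 37.2 after IL-10, and among LPS-treated libraries 35.9 to 51.6 without pretreatment, 13.3 to 30.1 after JQ1 and 31.5 to 70 after IL-10. Both lists were lower with JQ1, as the genes described below were, and their part in those changes was not tested. The 5 dendritic cell markers moved with JQ1 as well, from 69.3 to 93.9 TPM in unstimulated libraries to 38.4 to 42.9, almost all of it Itgax, which macrophages also express. Markers of T cells, B cells, fibroblasts and mast cells added up to at most 10.3 TPM per list in any library, and the mast cell marker Tpsb2 was at 0 throughout.

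Promoters of 8 members are shown, some with higher and some with lower counts after LPS, as described next. Letters of known cell cycle elements are marked in runs of both directions, and the Ccne1 run holds none. Each run is the 120 bases just upstream of the start given by RefSeq (GRCm38.p6), found without mismatch in mm9, and reads 5′ to 3′ on the strand of the gene. For Ccne1 this start lies 44 bases inside the gene span given below, so the run overlaps that span. Capitals mark letters of E2F sites (TTCGCGC, or TTGGCGC, or TTCCCGC, or else TTGCCGC), of the cell cycle homology region or CHR (TTTGAA), of the CCAAT box (CCAAT) and of the NF-kB consensus, each searched on both strands, and overlapping matches were joined. Mki67, E2f8, Ccne1 and Mcm10 had higher counts after LPS.
Mki67, chr7:142908063-142908182, minus: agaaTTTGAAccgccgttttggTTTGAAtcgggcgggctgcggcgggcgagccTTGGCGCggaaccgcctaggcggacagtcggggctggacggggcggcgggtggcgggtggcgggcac
E2f8, chr7:56136967-56137086, minus: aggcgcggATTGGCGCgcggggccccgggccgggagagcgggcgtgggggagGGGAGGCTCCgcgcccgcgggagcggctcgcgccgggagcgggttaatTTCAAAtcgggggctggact
Ccne1, chr7:38892510-38892629, minus: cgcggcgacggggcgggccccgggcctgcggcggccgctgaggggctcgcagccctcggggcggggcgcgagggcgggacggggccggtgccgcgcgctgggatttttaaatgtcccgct
Mcm10, chr2:4933838-4933957, minus: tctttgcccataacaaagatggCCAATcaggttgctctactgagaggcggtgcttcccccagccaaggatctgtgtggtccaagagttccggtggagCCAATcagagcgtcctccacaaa
Mcm6, Top2a, Ccnb2 and Cenpf had lower counts after LPS.
Mcm6, chr1:130256283-130256402, minus: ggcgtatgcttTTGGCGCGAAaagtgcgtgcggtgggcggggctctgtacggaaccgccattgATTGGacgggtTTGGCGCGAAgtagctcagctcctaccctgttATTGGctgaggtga
Top2a, chr11:98885504-98885623, minus: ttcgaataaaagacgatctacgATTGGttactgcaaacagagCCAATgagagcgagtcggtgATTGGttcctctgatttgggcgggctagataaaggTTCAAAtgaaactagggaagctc
Ccnb2, chr9:70269362-70269481, minus: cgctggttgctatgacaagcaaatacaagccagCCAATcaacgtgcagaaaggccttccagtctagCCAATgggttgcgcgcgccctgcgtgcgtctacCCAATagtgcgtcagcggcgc
Cenpf, chr1:191511966-191512085, minus: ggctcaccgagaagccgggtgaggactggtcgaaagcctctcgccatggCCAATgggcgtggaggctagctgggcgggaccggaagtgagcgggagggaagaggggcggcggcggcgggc

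In the full window of 300 bases around the start, a promoter was found for 46 of the 56 members (49 promoters in all), and 25 of the 49 (51.0%) held an E2F match, against 9.57% of all 32851 promoters. A CHR match was found in 28.6% of the members' promoters against 17.9% of all, a CCAAT box in 75.5% against 37.4%, and an NF-kB match in 8.16% against 8.46%. By role, E2F matches were in 64.5% of the 31 promoters of licensing, fork, nucleotide and G1/S genes and in 18.8% of the 16 promoters of G2/M and mitotic genes. CHR matches ran the other way, at 12.9% and 62.5%. Ccnb2 and Cenpf held a CHR match in the full window, though none is marked in their printed runs. Of the 7 members whose counts rose with LPS, E2f8, Mki67 and Rfc3 held an E2F match, E2f8 and Mki67 a CHR match and E2f8 an NF-kB match. A match describes these letters only, and its absence says nothing about binding.

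LPS against unstimulated cells asks how these genes stood 4 hours after activation. Of the 56 genes, 46 had lower and 7 had higher counts (DESeq2 Wald test, adjusted p under 0.05 over all genes), where 64.5% of all genes tested were called (32.9% lower and 31.6% higher). The median log2 fold change of the members was -1.59 and that of all genes tested -0.07. All 3 LPS libraries lay below all unstimulated ones for 46 members (35.9% of all genes tested) and above them for 7 (33.4%). The fall took in every role: all 9 licensing genes, 7 of 11 fork genes, 3 of 4 nucleotide genes, 7 of 10 G1/S genes, both checkpoint and repair genes, all 13 G2/M genes and 5 of 7 mitotic genes fell. The 7 that rose were Ccne1, E2f8, Mki67, Rfc3, Tyms, Mcm10 and Pcna, and Rfc5, Cdc25a and Cenpe were not called. Scaling to total counts moved the median of all genes from -0.07 to -1.02, and the members' count was then 4 higher and 50 lower. With limma on log2(TPM + 1) it was 5 higher and 47 lower. Ccne1, E2f8, Mki67 and Rfc3 were higher under each of these scalings. Tyms was higher with limma but not under total-count scaling, and Mcm10 and Pcna were called higher under neither.

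**Figure D1:**
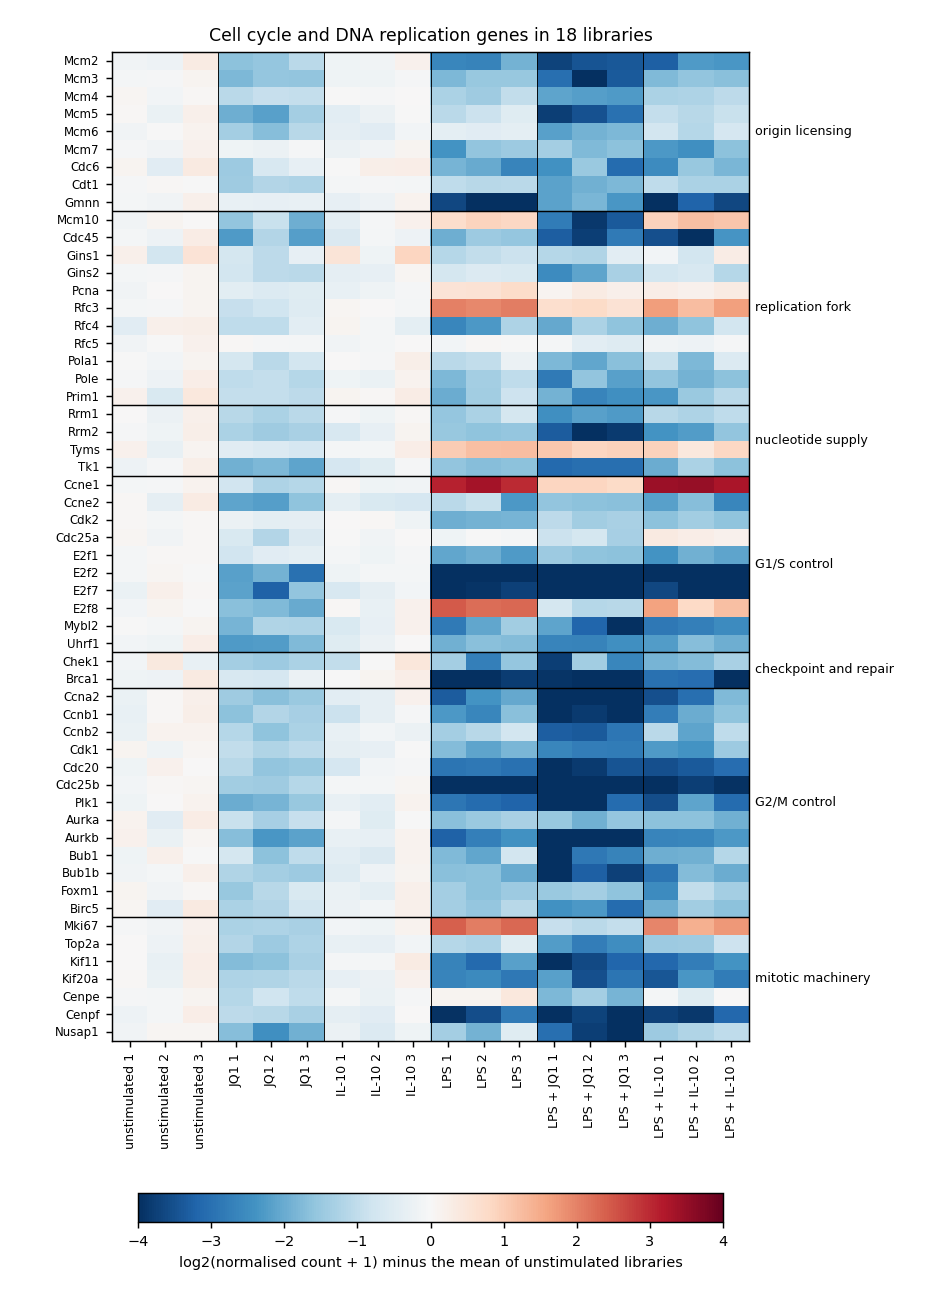
Each row is 1 of the 56 genes, grouped by role, and each column 1 library; colour gives log2(normalised count + 1) minus the mean of the 3 unstimulated libraries, with values beyond -4 or 4 drawn in the end colours. Most rows are blue after LPS and bluest after LPS + JQ1, while Ccne1, E2f8, Mki67 and Rfc3 are red after LPS.

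Among the licensing genes, Gmnn (geminin, which binds and blocks Cdt1; chromosome 13, 24843714 to 24853792, minus strand of mm9) had normalised read counts of 127, 123 and 157 in unstimulated replicates 1, 2 and 3 and 9.90, 4.14 and 2.46 with LPS. Every LPS library lay far below every unstimulated one. The log2 fold change was -4.71 (SE 0.44, DESeq2 adjusted p 2.41e-26), and the 13 raw counts with LPS against 471 gave a ratio of 26.7 (95% counting interval 15.5 to 50.5). Cdt1, the loading factor that geminin blocks, went from 565, 599 and 573 to 283, 269 and 274. These groups did not overlap either, but the fall, -1.07 (SE 0.10, adjusted p 4.82e-28, DESeq2), was smaller. Mcm6, a subunit of the helicase ring, went from 451, 489 and 546 to 379, 359 and 378, a fall of 0.42 on the log2 scale (adjusted p 0.00914, DESeq2) that was not called without replicate 3.

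At the fork, Rfc3, a subunit of the clamp loader that places Pcna on DNA, had normalised counts of 87.9, 89.6 and 99.9 in unstimulated and 376, 356 and 384 in LPS libraries. The groups stood well apart. Its log2 fold change was 2.00 (SE 0.14, DESeq2 adjusted p 1.56e-44), whereas the other subunits listed did not follow it, with -2.04 for Rfc4 (adjusted p 6.92e-06) and -0.04 for Rfc5 (adjusted p 0.85). Mcm10, which helps to activate the loaded helicase, went from 54.0, 64.3 and 59.7 to 96.1, 111 and 106, a log2 fold change of 0.83 (adjusted p 0.000287, DESeq2). Under total-count scaling it was -0.10 and with limma on TPM 0.01, and neither was called. Pcna, the sliding clamp, was by far the most abundant member, at 362 ± 34.9 TPM (SD, n = 3) in unstimulated cells. Its normalised counts of 2572, 2841 and 3061 became 4131, 4166 and 4699, a log2 fold change of 0.62 (adjusted p 1.77e-11, DESeq2) that turned to -0.31 and was called lower under total-count scaling (adjusted p 0.00196). Its direction after LPS therefore rests on the scaling.

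Of the nucleotide genes, Rrm1, the large subunit of ribonucleotide reductase, fell from 493, 419 and 565 to 165, 204 and 302 normalised counts, and Tk1, thymidine kinase, from 154, 174 and 211 to 59.4, 53.8 and 56.5. No LPS library of either gene reached an unstimulated one. The log2 fold changes were -1.14 (SE 0.17) for Rrm1 and -1.68 (SE 0.22) for Tk1, with DESeq2 adjusted p of 3.02e-11 and 2.64e-13. Tyms, thymidylate synthase, went the other way, from 67.1, 49.0 and 65.0 to 123, 139 and 144, a log2 fold change of 1.12 (adjusted p 1.44e-09, DESeq2) that shrank to 0.19 under total-count scaling, where it was not called.

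The G1/S genes split most widely. Ccne1 (cyclin E1, the partner with which Cdk2 starts S phase; chromosome 7, 38883003 to 38892553, minus strand of mm9) had normalised counts of 29.3, 30.4 and 34.2 in unstimulated and 271, 325 and 253 in LPS libraries. All 3 LPS libraries were above all unstimulated ones. This 8.99-fold rise was the largest among the members (log2 fold change 3.17, SE 0.19, DESeq2 adjusted p 2.05e-60). Ccne2, the related cyclin E2, had 22.4, 16.9 and 27.5 counts in unstimulated libraries and 9.90, 11.4 and 3.68 with LPS, a log2 fold change of -1.45 (adjusted p 0.00386, DESeq2) that was not called without replicate 1 or replicate 3. E2f8, a repressor of E2F target genes, rose from 95.7, 109.9 and 102 to 563, 489 and 505, a log2 fold change of 2.35 (SE 0.18, adjusted p 1.16e-37, DESeq2). Its exons overlap those of Gm2788 on the opposite strand, and the reads were assigned without regard to strand, so its counts are uncertain.

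The other E2F members fell. E2f1, an activator, went from 369, 403 and 409 normalised counts to 91.9, 101 and 81.0, and Cdk2 from 272, 249 and 272 to 67.9, 70.3 and 72.4. The LPS libraries of each held about the same level and none overlapped the unstimulated ones. The log2 fold changes were -2.10 (SE 0.14) and -1.92 (SE 0.15), with DESeq2 adjusted p of 1.12e-48 and 1.17e-36. E2f2, also an activator, had 103, 115 and 107 normalised counts in unstimulated cells and a single raw count in each LPS library, 3 against 361 in sum. The scaled ratio was 88.6-fold lower, with a 95% counting interval of 30.1 to 432, which covers counting error only. E2f7, the closest relative of E2f8 and likewise a repressor, had 5 raw counts in all LPS libraries against 150, a ratio of 22.1 (95% counting interval 9.26 to 69.0). Uhrf1, which brings the maintenance DNA methyltransferase to newly copied DNA, fell from 222, 209.7 and 289 to 62.2, 74.4 and 71.2 (log2 fold change -1.80, adjusted p 6.23e-18, DESeq2).

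Of the checkpoint and repair genes, Brca1, which acts in homologous recombination, went from 73.3, 71.0 and 105 normalised counts to 2.83, 4.14 and 4.91. The libraries did not overlap (log2 fold change -4.39, SE 0.51, DESeq2 adjusted p 2.52e-17), and the 10 raw counts with LPS against 294 gave a ratio of 21.7 (95% counting interval 11.6 to 45.6). Chek1, the checkpoint kinase, was near the floor throughout, with 40 raw counts in the unstimulated and 7 in the LPS libraries, a ratio of 4.21 (95% counting interval 1.87 to 11.1), and it was not called without replicate 2.

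All 13 G2/M genes fell. Cdc25b, a phosphatase that activates Cdk1, went from 183, 201 and 207 normalised counts to 4.24, 8.27 and 9.82 (log2 fold change -4.69, SE 0.36, DESeq2 adjusted p 1.86e-38), and its 19 raw counts with LPS against 665 gave a ratio of 25.8 (95% counting interval 16.4 to 43.1). Ccna2 (cyclin A2) went from 139, 173 and 191 to 15.6, 31 and 39.3, Ccnb2 (cyclin B2) from 88.7, 118 and 118 to 41.0, 49.6 and 63.8, and Birc5 (survivin, of the chromosomal passenger complex) from 84.9, 59.2 and 105 to 31.1, 26.9 and 36.8. No LPS library of these genes reached an unstimulated one. The log2 fold changes were -2.53 (SE 0.34) for Ccna2, -1.06 (SE 0.24) for Ccnb2 and -1.43 (SE 0.28) for Birc5, and the members of this role ranged from -4.69 to -1.06. The exons of Ccna2 and Cdc25b overlap genes of the opposite strand (Exosc9 and Spef1), as do those of 15 members in all.

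The mitotic genes ranged from -3.45 to 2.24 on the log2 scale. Mki67 (Ki-67, which coats mitotic chromosomes and is widely used to mark proliferating cells; chromosome 7, 142881471 to 142908062, minus strand of mm9) had normalised counts of 1479, 1387 and 1701 in unstimulated and 7909, 6313 and 7433 in LPS libraries. All LPS libraries were above all unstimulated ones. It rose 4.73-fold (log2 fold change 2.24, SE 0.13, DESeq2 adjusted p 5.10e-70). Top2a, the topoisomerase that untangles chromosomes and another usual proliferation marker, moved oppositely, from 629, 541 and 717 to 283, 263 and 443 (log2 fold change -0.94, SE 0.20, adjusted p 4.90e-06, DESeq2). Cenpf, a kinetochore protein, fell from 167, 183 and 227 to 11.3, 15.5 and 25.8, or to 9.14% of its level (adjusted p 6.61e-33, DESeq2). Kif11 and Kif20a, motor proteins of the spindle, and Nusap1, a spindle-binding protein, fell as well, with log2 fold changes of -2.70, -2.75 and -1.15.

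**Figure D2:**
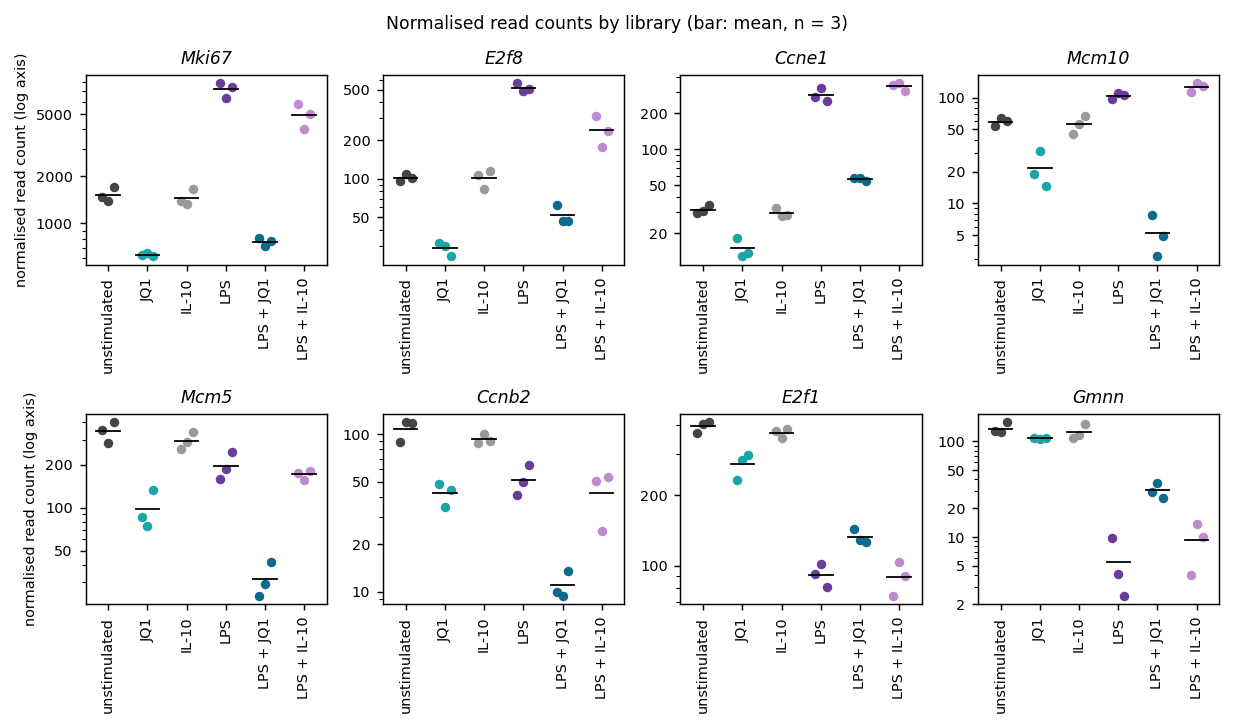
Points give the normalised read count of 8 genes in each library on log axes, and bars the mean of the 3 libraries of a group. Mki67, E2f8 and Ccne1 are highest with LPS or LPS + IL-10, Mcm5 and Ccnb2 lowest with LPS + JQ1, and E2f1 and Gmnn lower with LPS than with LPS + JQ1.

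JQ1 against unstimulated cells asks how resting macrophages given JQ1 alone differed from a control for which the methods name no vehicle. JQ1 lowered 50 of the 56 genes and raised none, where 45.7% of all genes tested were called (23.7% lower and 21.9% higher). The members' median log2 fold change was -1.24 and that of all genes -0.00. All 10 G1/S genes, all 13 G2/M genes, all 7 mitotic genes and all 4 nucleotide genes fell, and of the fork genes 9 of 11. The genes not called were Mcm7, Cdc6, Gmnn, Gins1, Rfc5 and Brca1. All 50 had lower counts under total-count scaling too, which called 54. The fitted changes ran from -2.33 to -0.03 over the 56 genes and from -2.11 to -1.06 over the G2/M genes.

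The largest falls with JQ1 among the better counted members were those of Uhrf1, Nusap1 and Tk1. Uhrf1 went from the counts given above to 48.4, 50.3 and 69.6 (log2 fold change -2.11, SE 0.20, DESeq2 adjusted p 8.05e-24). Nusap1 went from 102, 118 and 120 to 33.7, 19.7 and 29.3 (-2.03, SE 0.30, adjusted p 7.33e-11). Tk1 went to 45.8, 50.3 and 40.3 (-1.99, SE 0.22, adjusted p 7.36e-18). None of the JQ1 libraries of these genes overlapped the unstimulated ones. Mki67, which rose with LPS, fell with JQ1 to 624, 649 and 616, or to 41.3% of its level (adjusted p 1.50e-21, DESeq2), close to the 40.8% of Top2a. Mcm6 fell to 38.3%, Cdt1 to 41.4%, Rrm1 to 44.3%, Ccnb2 to 39.4%, Birc5 to 45.9% and Cenpf to 44.5% of the unstimulated mean. Smaller falls were seen for Pcna (71.1%), E2f1 (69.0%) and Cdk2 (79.8%, adjusted p 0.0132, not called without any 1 replicate). Gmnn kept 109, 106 and 109 counts, with a log2 fold change of -0.34 (adjusted p 0.142, DESeq2).

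IL-10 against unstimulated cells asks the same of the cytokine that these cells could not make. No member was called by DESeq2 in either direction (of all genes tested 2.81% were called, 1.8% higher and 1.01% lower), nor by edgeR or limma. At an unadjusted p under 0.05 there were 2 members by DESeq2, 3 by edgeR and 0 by limma, all lower. The lowest adjusted p was 0.442 (Mcm6, log2 fold change -0.30). The fitted change was below 0 for 48 of 56 members, with a median of -0.14 against -0.01 for all genes, and the largest size among members was 0.638. Mki67, for example, had 1395, 1339 and 1657 normalised counts with IL-10, which overlapped the unstimulated libraries.

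LPS + JQ1 against LPS asks how JQ1 given beforehand changed these genes during activation. Of the 56 genes 35 were lower and 3 higher with JQ1, where 57.3% of all genes tested were called (32.9% lower and 24.4% higher), and 18 were not called. The members' median log2 fold change was -1.16 and that of all genes -0.11. All 3 LPS + JQ1 libraries lay below all LPS ones for 35 members (35.4% of all genes tested) and above them for 3 (26.4%). The 35 included 10 of 13 G2/M genes, 6 of 9 licensing genes, 7 of 11 fork genes, 3 of 4 nucleotide genes, 5 of 7 mitotic genes and 4 of 10 G1/S genes. Under total-count scaling, which moved the median of all genes to 0.25, 28 were lower and 4 higher, and with limma on TPM 25 and 3. Over the 6 groups, LPS + JQ1 had the lowest mean for 39 of the 56 genes and for 20% of all genes with a mean of at least 10 normalised counts. For 24 of the 56 its 3 libraries lay below all 15 others, which held for 9.34% of those genes. The unstimulated mean was the highest for 41 of the 56 and for 13.7% of those genes.

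This comparison shares the LPS libraries with that of LPS against unstimulated cells, so the values of each are given side by side. Mcm10, E2f8 and Mki67 fell most among members with a mean of at least 50 normalised counts. Mcm10 went from 96.1, 111 and 106 with LPS to 7.73, 3.16 and 4.92 with LPS + JQ1, which were 14 raw counts against 261 (95% counting interval of the ratio 11.7 to 37.1, log2 fold change -4.31, SE 0.43, DESeq2 adjusted p 1.01e-22). E2f8 went to 62.9, 46.3 and 46.8, a 9.95-fold fall (-3.32, SE 0.20, adjusted p 1.43e-58), and Mki67 to 804, 717 and 777, a 9.42-fold fall (-3.24, SE 0.13, adjusted p 7.39e-139). In each of the 3 the LPS + JQ1 libraries lay below the unstimulated ones too. Ccne1 fell 5.02-fold to 57.4, 57.9 and 54.2 (adjusted p 2.06e-39, DESeq2) but stayed above every unstimulated library, and Rfc3 fell 2.51-fold to 147, 158 and 139 and stayed above them as well. Tyms had 127, 108 and 114 counts and was not called (-0.22, adjusted p 0.284).

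Other members also fell. Mcm5, a helicase subunit, went from 160, 186 and 246 to 24.3, 29.5 and 41.9 (log2 fold change -2.64, SE 0.25, DESeq2 adjusted p 2.20e-24), and Ccnb2 to 9.94, 9.48 and 13.5 (-2.25, adjusted p 6.68e-10). The groups did not overlap for either. Mcm6 fell to 34.6%, Rrm1 to 44.3%, Tk1 to 36.6%, Birc5 to 41.5%, Top2a to 33.8% and Nusap1 to 17.6% of the LPS mean, all called, although Birc5 was not without replicate 3. Aurkb, the kinase of the chromosomal passenger complex, had 2 raw counts in the LPS + JQ1 libraries against 31 in the LPS libraries, a ratio of 16.6 (95% counting interval 4.23 to 143). Brca1, Cenpf, Cdc20 and Foxm1, the first 3 of which LPS alone had left at few counts, were not called.

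Gmnn, Cdk2 and E2f1 were the genes that JQ1 raised during LPS. Gmnn had 29.8, 36.9 and 25.9 counts against 9.90, 4.14 and 2.46 with LPS alone, a ratio of 5.96 (95% counting interval 3.30 to 11.7, log2 fold change 2.57, SE 0.46, DESeq2 adjusted p 8.54e-08). E2f1 had 144, 128 and 126 against 91.9, 101 and 81.0 (0.53, SE 0.16, adjusted p 0.00149), and Cdk2 126, 99.0 and 106 against 67.9, 70.3 and 72.4 (0.65, SE 0.16, adjusted p 0.000204). None of the groups overlapped, and all 3 genes were higher under total-count scaling and on TPM as well. Without replicate 1 the last 2 were not called (adjusted p 0.054 for E2f1 and 0.0602 for Cdk2). All 3 stayed below their unstimulated counts.

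LPS + IL-10 against LPS asks how IL-10 compared. It lowered 6 of the 55 members tested (10.9%) and raised none, where 17.2% of all genes tested were called (8.81% lower and 8.38% higher). The members' share called was thus below that of all genes, and their share lower was close to it. They were E2f8, Mki67, Rfc3, Pcna, Mcm6 and Cdc45, and edgeR did not call the last 2. E2f8 fell to 313, 179 and 238 from 563, 489 and 505, or to 47.0% (log2 fold change -1.09, SE 0.17, DESeq2 adjusted p 1.01e-08), and Mki67 to 5837, 4054 and 5044, or to 69.0% (adjusted p 0.000246). Rfc3 fell to 294, 217 and 293, or to 72.6% (adjusted p 0.00278), a call that was lost when any 1 replicate was left out. No LPS + IL-10 library of these genes overlapped an LPS library. Such separation was seen for 10 members lower (13.6% of all genes tested) and 4 higher (12.4%). Ccne1 did not follow, at 345, 357 and 307 (0.24, adjusted p 0.273). The count was 3 without replicate 1 and 2 without replicate 2, with E2f8 and Mki67 called each time. Limma on TPM kept only these 2 of the 6 calls and lost Pcna, Rfc3, Mcm6 and Cdc45. The members' median was -0.16 against -0.02 for all genes.

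LPS + JQ1 against LPS + IL-10 sets the pretreatments side by side, each at its single dose. With JQ1, 32 members were lower and 2, Gmnn and E2f1, higher than with IL-10 (of all genes tested 55.3% were called, 31.6% lower and 23.8% higher), with a members' median of -0.97 against -0.10. E2f1 was not called without replicate 1. Mcm10 was 24.0-fold lower with JQ1 (95% counting interval 14.1 to 44.5, log2 fold change -4.58, SE 0.43, DESeq2 adjusted p 1.13e-25), Mki67 6.50-fold (adjusted p 1.12e-96) and Ccne1 5.92-fold (adjusted p 2.52e-48). Pcna differed by -0.04 with an adjusted p of 0.71, and 0.24 with an adjusted p of 0.026 under total-count scaling.

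**Figure D3:**
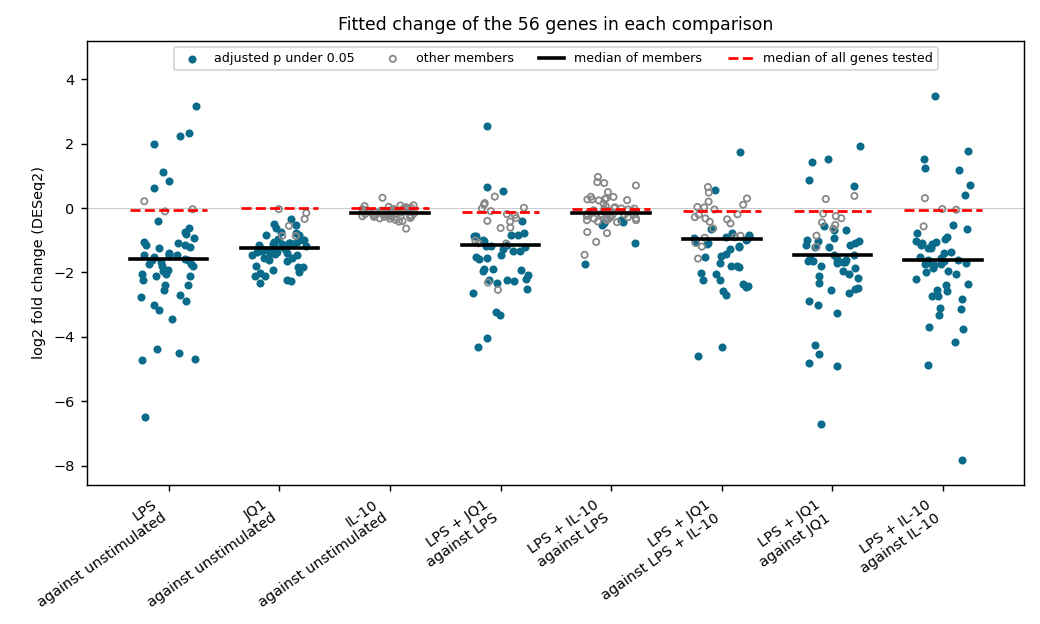
Each point is the DESeq2 log2 fold change of 1 of the 56 genes in 1 of 8 comparisons, filled where the adjusted p was under 0.05, with black bars at the members' median and dashed red bars at the median of all genes tested. The members' median lies well below that of all genes in every comparison but those of IL-10 against unstimulated (-0.14) and LPS + IL-10 against LPS (-0.16).

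The LPS effect was also read within each pretreatment. After JQ1, LPS lowered 41 members and raised 5 (58.6% of all genes tested were called, 31% lower and 27.6% higher), and after IL-10 it lowered 45 and raised 7 (67% of all genes tested, 33.8% lower and 33.2% higher). The medians were -1.44 and -1.62. After IL-10 the 7 risers were those seen without pretreatment, with Ccne1 up 11.2-fold to the counts above from 32.2, 27.7 and 28.2, but Pcna was lower under total-count scaling (-0.41) and on TPM (-0.31), and Mcm10 and Tyms were not called under total-count scaling. After JQ1, Ccne1 (3.77-fold), Tyms (2.88-fold), Rfc3 (2.69-fold), E2f8 (1.83-fold, not called under total-count scaling) and Pcna (1.62-fold) rose, Mki67 had a log2 fold change of 0.28 (adjusted p 0.0531, DESeq2) and Mcm10 fell by 2.04 on the log2 scale (adjusted p 2.08e-05). Of the 46 genes that LPS lowered without pretreatment, 39 were also lowered after JQ1 and the other 7 (Aurka, Ccne2, Chek1, Foxm1, Gins1, Rfc4 and Uhrf1) were not called. E2f2 had 70 raw counts in JQ1 libraries and 0 in all 3 LPS + JQ1 libraries, at least 6.37-fold lower with 3 counts per library as the floor. Cdc25b, Ccna2 and Cenpf (13.5% left) fell most among the better counted members, with ratios of 30.0 for Cdc25b (95% counting interval 14.4 to 75.4) and 9.56 for Ccna2 (5.73 to 17.1).

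Whether the JQ1 effect differed with and without LPS was tested as an interaction, which is also the difference between the LPS effects with and without JQ1. It was called for 15 of the 56 genes, 8 positive and 7 negative, where 41.5% of all genes tested were called (17.7% positive and 23.8% negative). The members' share was thus below that of all genes. The split depended on the scaling: 20 were positive and 3 negative under total-count scaling and 34 and 4 with limma on TPM. Of the 7 negative interactions, 5 were those of genes that rose with LPS alone: Mcm10 (-2.87, SE 0.50, DESeq2 adjusted p 1.09e-07), Mki67 (-1.96, SE 0.18, adjusted p 2.53e-25), E2f8 (-1.48, SE 0.31), Ccne1 (-1.25, SE 0.33) and Rfc3 (-0.57, SE 0.22). The others were those of Mcm5 (-0.82), a licensing gene that LPS lowered, and of a mitotic gene that LPS did not raise. The Rfc3 interaction was near 0 under total-count scaling (-0.02) and was lost with any 1 replicate left out, as was that of Cdt1. That of Ccne1 was not called under total-count scaling (-0.70, adjusted p 0.0672) or without replicate 1. The 8 positive ones were those of 2 licensing, 4 G1/S, 1 G2/M and 1 mitotic gene. They included genes that LPS lowered less after JQ1: Gmnn (2.90, SE 0.50, adjusted p 4.88e-08), Uhrf1 (1.28, SE 0.32), E2f1 (1.07, SE 0.19), Cdk2 (0.98, SE 0.20) and Cdt1 (0.40, SE 0.15). The highest value fitted for a G1/S gene was 1.83, in a member other than these. Without replicate 1 only 8 members were called. For IL-10 the interaction was called for 1 of 52 members tested, E2f8 (-1.09, SE 0.26, adjusted p 0.000644; of all genes tested 7.44% were called, 4% positive and 3.44% negative), and for 0 without replicate 3.

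**Figure D4:**
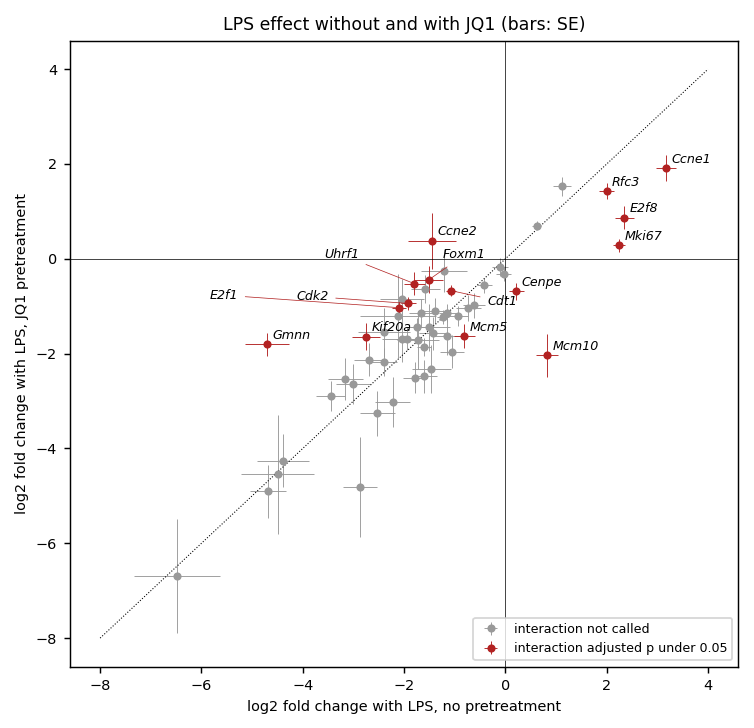
Each point is 1 of the 56 genes, with its log2 fold change by LPS without pretreatment on the horizontal axis and after JQ1 on the vertical axis; bars are standard errors, the dotted line marks equal effects, and red points passed the interaction test. Mcm10, Mki67, E2f8, Ccne1 and Rfc3 lie below the line and Gmnn, E2f1, Cdk2 and Uhrf1 above it.

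On the TPM scale, which allows levels of different genes to be added, the 56 genes summed to 885 ± 96 (SD, n = 3) in unstimulated cells, 440.1 ± 30.9 after JQ1 and 831 ± 94.0 after IL-10. With LPS they summed to 550.2 ± 75.0 without pretreatment, 403 ± 40.2 after JQ1 and 471 ± 49.9 after IL-10. Pcna made up much of each sum. Without it the sums were 523 ± 63.6, 216 ± 16.4, 494 ± 61.9, 225 ± 27.1, 102 ± 2.50 and 199.5 ± 20.9 TPM in the same order. By this measure the libraries given JQ1 alone and LPS alone overlapped, and the 3 LPS + JQ1 libraries (99.2 to 104 TPM) lay below all others. Mki67 alone held 58.4 ± 7.34 TPM with LPS and 7.65 ± 0.16 with LPS + JQ1. On log2(TPM + 1) the median change of all genes tested was itself -0.69 for LPS. It was -0.16 for JQ1 alone and 0.17 for LPS + JQ1 against LPS. A fall in TPM with LPS was thus not particular to these genes. No test was run on these sums. In unstimulated cells the members' mean levels ran from 0.543 (Chek1) to 362 TPM (Pcna) with a median of 7.26.

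The replicates, each read as 1 mouse, differed as well. Replicate 3 was the highest of its group for 40 of the 56 genes in unstimulated cells and for 47 with IL-10, where it was the highest for 30.6% and 32.3% of all genes expressed. It was the highest for 23 after JQ1 alone (31% of all genes expressed), and with LPS for 31 without pretreatment (38.6%), 17 after JQ1 (34.3%) and 28 after IL-10 (37.5%). The members' median level in replicate 3 was 110.4% of the group mean in unstimulated cells and 114.6% with IL-10, small beside the falls with JQ1 or LPS. Replicate 3 was on sequencing lane 8 in every group and replicate 1 on lane 7, so mouse and lane cannot be told apart for these. Replicate 2 was on lane 7 in the groups without LPS and on lane 8 in those with LPS, so lane was also partly tied to LPS. Within same-numbered pairs of libraries, the members' median log2 difference beyond that of all genes was -1.57, -1.43 and -1.43 for LPS, -1.19, -1.11 and -1.29 for JQ1, and -1.0, -0.93 and -1.16 for LPS + JQ1 against LPS.

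Other genes of these pathways, 118 in 3 lists, were counted in the same fits. Of all genes tested, LPS called 64.5% (32.9% lower and 31.6% higher) and JQ1 alone 45.7% (23.7% lower and 21.9% higher). LPS + JQ1 against LPS called 57.3% (32.9% lower and 24.4% higher). Of 48 further replication genes, LPS lowered 38 and raised 2 and JQ1 alone lowered 26 and raised 2, but LPS + JQ1 against LPS had 16 higher and 8 lower. Of 54 further mitosis genes, LPS lowered 42 and raised 4, JQ1 alone lowered 43 and raised none, and LPS + JQ1 against LPS had 31 lower and 5 higher. Of 16 regulators of the RB, E2F and DREAM group, which hold cell cycle genes on or off, LPS lowered 5 and raised 5, JQ1 alone lowered 3 and raised 2, and LPS + JQ1 against LPS had 4 lower and 3 higher. The regulators' shares called (62.5%, 31.25% and 43.75%) were each below those of all genes. So was the 50% of the further replication genes for LPS + JQ1 against LPS.

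Among the replication genes, Timeless, which protects the fork, rose from 65.4 ± 7.50 to 392 ± 38.7 normalised counts (mean ± SD, n = 3) with LPS and stood at 139.5 ± 24.1 with LPS + JQ1. Pold3, a subunit of polymerase delta, went from 405 ± 13.1 to 711 ± 28.3 with LPS (log2 fold change 0.81, DESeq2 adjusted p 4.17e-23), but its change was -0.12 under total-count scaling. Dna2, a nuclease of lagging strand synthesis, fell from 148 ± 2.76 to 9.48 ± 3.16 and Atad2, a bromodomain ATPase, from 369 ± 34.9 to 44.3 ± 15.9. With JQ1 before LPS, Wdhd1, a fork protein, was at 64.1 ± 7.78 against 16.2 ± 3.15 with LPS alone, and Nasp, a histone chaperone, at 501 ± 30.0 against 193 ± 11.2 (log2 fold change 1.38, adjusted p 5.07e-32). Nasp thus stood above its unstimulated level of 238 ± 28.8. Lig1, the ligase that joins Okazaki fragments, went from 225 ± 33.0 to 62.7 ± 10.0 (-1.85, adjusted p 6.96e-23).

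Among the mitosis genes, Pttg1 (securin) rose with LPS from 85.8 ± 15.8 to 808 ± 39.5 normalised counts (log2 fold change 3.18, SE 0.12, DESeq2 adjusted p 5.17e-162) and Kif4, a chromosome-bound motor, from 77.4 ± 23.6 to 222 ± 28.0. JQ1 given first left Kif4 at 10.8 ± 2.56 and Tpx2, a spindle factor, at 34.7 ± 7.88 against 374 ± 29.7 with LPS. Ccnf (cyclin F) and Anln (anillin, of the cleavage furrow) fell most with LPS, from 135 ± 18.5 to 2.07 ± 3.58 and from 165 ± 29.0 to 18.7 ± 1.83. Ccnf was at 36.8 ± 9.15 with LPS + JQ1 (log2 fold change against LPS 3.95, adjusted p 4.36e-09), and Ncaph, a condensin subunit, was higher than with LPS as well (0.71, adjusted p 0.0274).

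Among the regulators, Rbl1 (p107, a pocket protein that represses E2F targets) rose with LPS from 235 ± 40.2 to 2467 ± 346 normalised counts (log2 fold change 3.38, SE 0.14, DESeq2 adjusted p 1.00e-118) and E2f5, a repressor E2F, from 67.8 ± 10.5 to 281 ± 42.7. JQ1 given first left Rbl1 at 713 ± 51.0 (-1.79, adjusted p 5.50e-37). Tfdp2, a dimer partner of E2Fs, fell with LPS from 251 ± 31.8 to 38.9 ± 3.85 and E2f6, another repressor, from 203 ± 19.5 to 35.9 ± 2.99. E2f6 was at 116 ± 8.49 with LPS + JQ1. Of the MuvB subunits, Lin37 was higher (0.85, adjusted p 1.51e-07) and Lin9 lower (-1.65, adjusted p 9.68e-16) with LPS + JQ1 than with LPS.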

How the data were processed

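RNA-seq libraries of Il10-/- BMDMs (18, in 6 groups of 3 named in the titles) were stranded and depleted of ribosomal RNA. The authors extracted reads with TagDust, used STAR for alignment to mm9 and obtained gene levels from RSEM 1.2.31 under default settings, which ignore strand. The deposited expected counts divide reads among matching genes, and 5.40% to 6.63% of them per library were not whole and were rounded here. The TPM values, scaled by length and depth, are used as deposited.

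The 56 members, the other lists and the markers were chosen with earlier results of these data known. The DESeq2 1.42.0 Wald test (R 4.3.3) was fitted to the 18 libraries together, with no term but group, using median-of-ratios size factors, from which came the normalised counts. A gene was called changed at an adjusted p (Benjamini-Hochberg, over all genes) under 0.05. With 3 libraries a group, a single value could not reach an exact permutation p under 0.05, so tests came from this fit. Named were the 2 members of each role with the highest mean TPM, and in each comparison the 3 largest rises and falls among called members averaging 50 or more normalised counts; of the other lists, 2 each way after LPS and 2 with LPS + JQ1. Members named outside that rule, such as Mcm5, Ccne2, Rfc4, Rfc5, E2f2, E2f7, Aurkb, Kif11, Kif20a, Cdc20, Foxm1 and Cdc45, and lists of members not called, were named after their values were seen. Of the members 17 had a mean normalised count under 50 and 16 had a library at or under 3 counts.

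Each replicate number was read as 1 mouse, since the labels call the cultures matched across groups. Same-numbered libraries deviated together from their group means with mean correlations of -0.05 to 0.32 over the comparisons. Pairs of replicates differed by a chi-square of 4.14 to 30.5 per degree of freedom, so none was counted as a duplicate. The highest values, 26.1 to 30.5, were those of replicate 3 against the other replicates in the LPS and LPS + IL-10 groups. Alternatives were edgeR 4.0.16 (quasi-likelihood, TMM), total-count scaling, limma 3.58.1 on log2(TPM + 1), 2 filters, the compared groups alone, the replicate block, the lane and leaving out each replicate. The DESeq2 fit was tested on simulated data. Intervals and floors cover counting error only. Gene positions came from GENCODE vM1 on mm9, promoters from RefSeq (GRCm38.p6).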

Additional observations from a re-analysis of the deposited data

Results flagged for a closer look

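The results below were flagged because a pretreatment acted differently on cells with LPS than on cells without it, by the DESeq2 interaction test. For JQ1 and LPS this was called for 15 of the 56 genes, a smaller share than the 41.5% of all genes tested. Only called members that the naming rule also names are listed. The interaction of JQ1 and LPS (log2 scale) was -2.87 for Mcm10, -1.96 for Mki67, -1.48 for E2f8, -1.25 for Ccne1 and -0.57 for Rfc3. It was 2.90 for Gmnn, 1.28 for Uhrf1, 1.07 for E2f1, 0.98 for Cdk2 and 0.40 for Cdt1. The adjusted p ran from 2.53e-25 for Mki67 to 0.0235 for Rfc3. The calls of Rfc3 and Cdt1 were lost with any 1 replicate left out, and that of Ccne1 without replicate 1 or under total-count scaling. The interaction of IL-10 and LPS was -1.09 for E2f8 (SE 0.26, adjusted p 0.000644), where 7.44% of all genes tested were called. It was lost without replicate 3, and the counts of E2f8 are uncertain for the overlap given above.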

How the results depend on the processing

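Most results kept their direction and their side of the threshold. Of the counts of called members under an alternative 102 stayed within 1.5 times, 3 rose and 5 fell by more, and of the members' called fold changes, counted over comparisons and alternatives, 3050 kept their call, 180 were no longer called and 8 reversed. Pcna turned to -0.31 (scaled to total counts) and -0.16 (limma) after LPS, and for LPS after IL-10 to -0.41 and -0.31, of which all but the -0.16 were called lower. The others, not called, were Mcm10 after LPS (-0.10, total-count scaling), Tyms for LPS after IL-10 (-0.10 by total counts, -0.0154 by limma) and the interaction of JQ1 and LPS for Mcm5 (0.21, limma). The count for LPS + IL-10 against LPS, 6, was 3 with only the compared groups fitted and 2 to 4 with a replicate left out. The count for the interaction of JQ1 and LPS, 15, was 23 under total-count scaling, 38 with limma on TPM and 8 to 10 with a replicate left out, and that of IL-10 and LPS, 1, was 0 to 1. With the replicate block, which pairs the libraries by mouse, the latter was 2, and the block changed no other count by over 1.5 times. The cause of these moves was not tested.

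The members' median minus that of all genes moved toward 0 with limma on log2(TPM + 1), whose pseudocount understates changes of low genes: -0.89 for LPS (main -1.52), -0.93 for JQ1, -0.50 for LPS + JQ1 against LPS, -0.42 against LPS + IL-10, -0.56 for LPS after JQ1 and -0.91 after IL-10. With a replicate left out it was -0.107 to -0.0762 for IL-10, -1.14 to -0.86 for LPS + JQ1 against LPS, -0.225 to -0.0916 for LPS + IL-10 against LPS and -1.50 to -1.13 for LPS + JQ1 against JQ1. Depth limits the members with a library at or under the floor of 3 counts, among them E2f2, E2f7, Chek1, Gmnn, Brca1 and Cdc25b with LPS and Aurkb and Mcm10 with LPS + JQ1.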
